A study of Mus musculus with 45 samples.

Results

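The 33 genes described here encode enzymes and regulators of cholesterol and fatty acid synthesis, followed in the NIH-3T3 line, which derives from fibroblasts of mouse embryos. They were listed by name, and the list was drawn up with earlier results of these data known. Each was read from probe sets whose annotation gives that symbol alone, keeping for each gene the probe set with the highest mean over all 45 arrays. The table held such a probe set for 32 of them, out of 13232 genes with a probe set of a single symbol. Acat2, the cytosolic enzyme that joins acetyl-CoA units at the start of the sterol pathway, had none, so its expression is not analysed here. The 32 comprised 5 regulators, 16 sterol enzymes, 10 fatty acid enzymes and the sterol carrier Stard4.

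Expression was measured on 45 Affymetrix arrays in 11 groups, all from cells of passage 5 to 15 grown in 5% newborn calf serum, with no genetic change named in the labels. Newly transcribed RNA carried 4-thiouridine, a uridine analogue that cells build into RNA as they make it, after 15 min or 30 min at 500 µM or after 60 min at 200 µM. Cells labelled for 30 min or 60 min received it in fresh medium. Unlabelled, pre-existing RNA was the rest of the RNA after 60 min. Total RNA came from labelled cells at 30 min and 60 min, from a second 60 min experiment whose titles carry "2F" and which also gave newly transcribed RNA, and from cells before and 1 h and 2 h after 5 µg/ml actinomycin D, which blocks transcription. The titles of the 15 min, 60 min and 2F arrays also carry the word mock, which those of the 30 min arrays do not, and the labels explain neither mock nor 2F. There were 9 arrays for each kind of RNA at 30 min and 3 in every other group. The labels do not say which arrays came from separate cultures, so the p-values measure only how these arrays vary, and that may be technical variation.

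Cells sense sterols in the membrane of the endoplasmic reticulum. There Scap escorts the transcription factor precursors encoded by Srebf1 and Srebf2, and the proteins of Insig1 and Insig2 hold that complex back when sterols are plentiful. When sterols run low, the released factors raise the genes of the sterol pathway, of fatty acid synthesis and of Insig1 itself. Stard4 belongs to the same target genes and carries cholesterol between membranes.

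Values below are log2 of the deposited array intensities, and differences are log2 differences between group means ± their standard error (SE), except where an SD is named. A gene was called when limma's Benjamini-Hochberg adjusted p over all probe sets of the fit was below 0.05 and the fold change was 2 or more, which is 1 on the log2 scale. Some counts below use a p below 0.05 at any size. The share of all probe sets at that limit was not taken, so those counts cannot be set against a background. Probe sets were tested where their mean over the arrays of a fit was 5 or more, an intensity of 32. One whose median lay below 5 in 1 group passed only through the other, so its difference is given as a bound (at least so many fold), with each array below 5 raised to 5. No p-value stands beside a bound, because the test used the values below 5 as they were. Arrays compare a probe set with itself across groups, so levels of different genes are not compared. All 11 of the fibroblast markers were at or above an intensity of 32 before actinomycin D, at log2 values from 7.96 to 14.17. None of the 4 measured epithelial markers reached it, nor did the 2 of hepatocytes and the 2 of endothelium, while Cd14 of leukocytes at 5.59 and Fabp4 of adipocytes at 5.10 did. The 9 arrays of each 30 min group fell into 3 trios, replicates 1, 4 and 7, replicates 2, 5 and 8, and replicates 3, 6 and 9. Correlations over probe sets in newly transcribed RNA were 0.974 to 0.993 within trios and 0.914 to 0.986 between them, and in total RNA 0.989 to 0.996 within and 0.926 to 0.971 between. The 30 min results were therefore also computed on trio means. Correlations with the own group were lowest for replicate 1 of newly transcribed RNA at 60 min, whose median was 0.861. Replicates 2 and 3 of that group had 0.922 and 0.921, and the arrays of total RNA at 60 min 0.921, 0.904 and 0.947. The lowest such median was 0.987 in 2F and 0.981 in pre-existing RNA. Comparisons with newly transcribed or total RNA at 60 min thus rest on more variable arrays than those of 2F.

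Newly transcribed RNA was set against total RNA of the same labelling to see which transcripts had been made during it in the largest proportion. Each array is scaled on its own, so a positive difference means enrichment relative to the other transcripts of that RNA, not an amount, and a change in the share of cells holding a transcript cannot be told apart from one in its amount per cell. At 30 min, 4 of the 32 genes were called higher in newly transcribed RNA, where 23.7% of all probe sets were, and 12 were called lower, where 25.6% were. At 60 min the counts were 4 higher, against a background of 17.7%, and 9 lower, against 21.8%. In the 2F experiment they were 4 higher, against 24.0%, and 8 lower, against 21.8%. The median difference of the 32 genes was -0.38 at 30 min, 0.01 at 60 min and -0.10 in 2F, beside -0.14, -0.14 and 0.04 for all probe sets. Since each gene was read from a single probe set, the same shares were also taken over all genes read by the same rule. Of these genes, 14.4% were called higher and 29.1% lower at 30 min, 15.6% and 24.6% at 60 min, and 18.8% and 22.5% in 2F, and their medians were -0.33, -0.21 and -0.04. Beside the genes read by the same rule, the members' counts and median at 30 min stood closer to the background than beside all probe sets. When every array was set to the same median, the median of all probe sets became -0.442 at 30 min, -0.175 at 60 min and -0.145 in 2F, and the counts became 2 higher and 14 lower, 2 higher and 9 lower, and 1 higher and 12 lower. At 60 min the count of 4 higher fell to 2 without replicate 3 of total RNA.

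**Figure D1:**
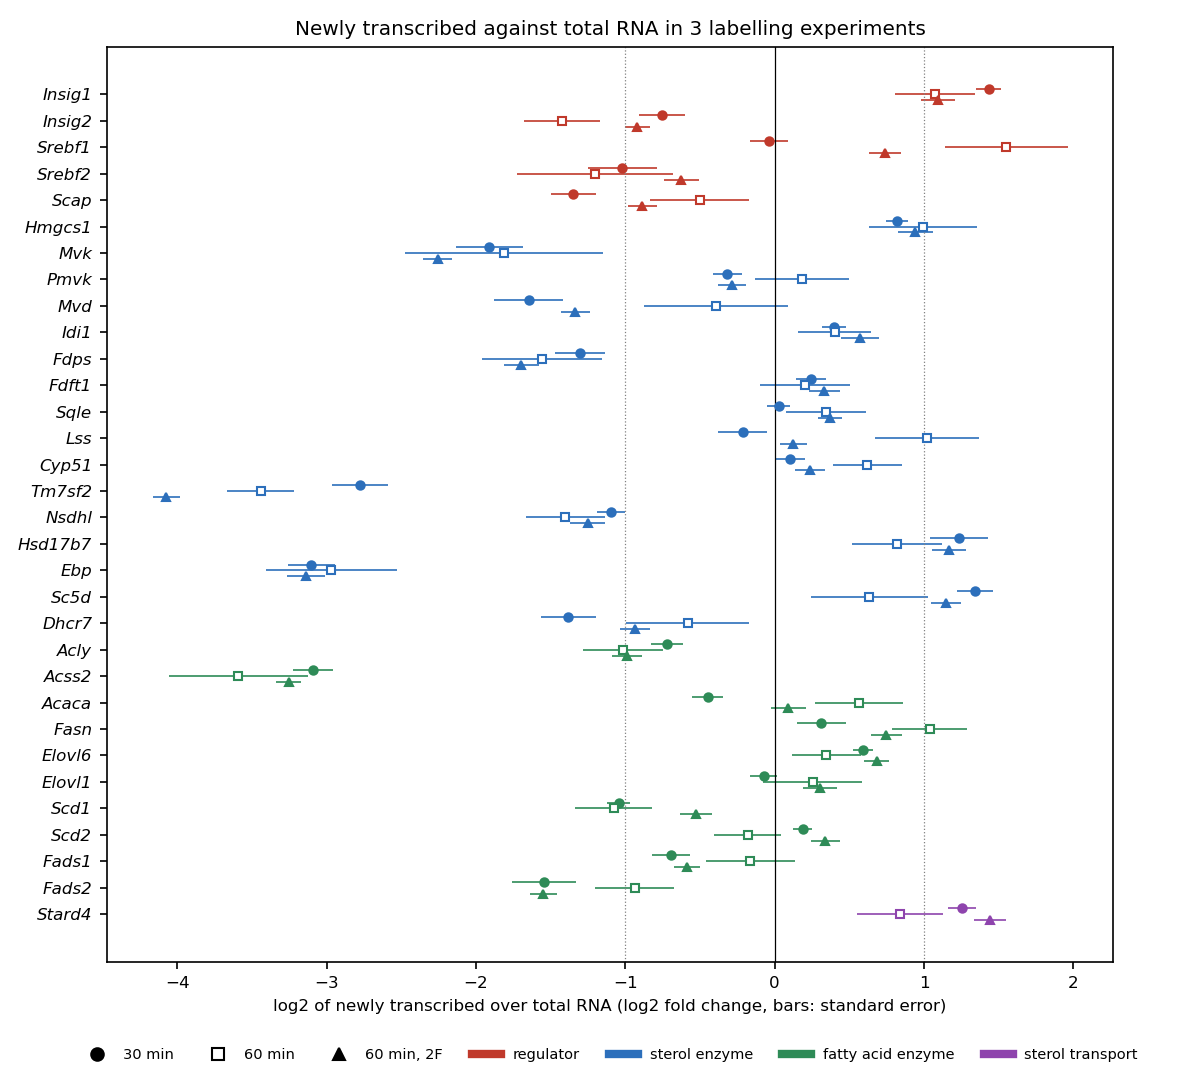
Log2 difference of newly transcribed minus total RNA for the 32 genes in the 30 min, 60 min and 2F experiments, with its standard error; colours give the role, and dotted lines mark a 2-fold change. Insig1 lies beyond 1 in all 3 experiments, and Ebp, Tm7sf2 and Acss2 lie between -2.77 and -4.07, where the points of Acss2, and of Tm7sf2 at 60 min and in 2F, rest on newly transcribed arrays below the filter.

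The regulators separated from each other. Insig1 was the gene of the 32 called higher in newly transcribed RNA in all 3 experiments, which held for 11.7% of the 14763 probe sets tested in all 3. Srebf1 was called higher at 60 min, and Insig2, Srebf2 and Scap were each called lower in a single experiment. Of the 5, 1 was called higher and 2 lower at 30 min, 2 higher and 1 lower at 60 min, and 1 higher and none lower in 2F. Among all genes read by the same rule, 14.4% were higher and 29.1% lower at 30 min. The shares were 15.6% and 24.6% at 60 min, and 18.8% and 22.5% in 2F. The median of the regulators was -0.75 at 30 min, -0.50 at 60 min and -0.62 in 2F. For comparison, the medians were -0.27, 0.19 and -0.08 for the sterol enzymes and -0.57, -0.17 and -0.22 for the fatty acid enzymes in the same order, and the difference between roles was not tested.

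The promoters of the Insig pair are shown because these genes of related function differed in direction. The sequences run from 250 bases before to 50 bases after the start of the transcript and come from RefSeq on GRCm38.p6. Insig1 spans chr5:28071412-28078662 and Insig2 chr1:121304353-121332662, whose start farthest upstream, of the 3 in the table, is the one shown. Capitals mark CCAAT, the box bound by NF-Y, and GGGCGG, the GC box, on either strand (ATTGG and CCGCCC on the other).
Insig1, chr5:28071162-28071461, plus strand: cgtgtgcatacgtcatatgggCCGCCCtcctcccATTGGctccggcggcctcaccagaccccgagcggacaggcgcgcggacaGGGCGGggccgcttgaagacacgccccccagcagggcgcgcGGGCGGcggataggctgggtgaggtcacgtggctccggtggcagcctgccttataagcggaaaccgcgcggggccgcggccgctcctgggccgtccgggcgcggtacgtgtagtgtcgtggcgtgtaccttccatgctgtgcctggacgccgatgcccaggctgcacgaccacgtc
Insig2, chr1:121332540-121332839, minus strand: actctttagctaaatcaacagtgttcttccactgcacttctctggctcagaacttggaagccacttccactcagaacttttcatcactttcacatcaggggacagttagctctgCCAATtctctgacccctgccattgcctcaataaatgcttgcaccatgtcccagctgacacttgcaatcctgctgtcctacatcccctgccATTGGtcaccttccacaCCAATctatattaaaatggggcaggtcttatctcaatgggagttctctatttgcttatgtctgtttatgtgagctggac

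The Insig1 window held 1 CCAAT and 3 GGGCGG, and the Insig2 window shown 3 CCAAT and no GGGCGG. The other 2 windows of Insig2 each held no CCAAT and 1 GGGCGG, so any contrast in these boxes between the pair depends on the start chosen. The proteins that bind these boxes are known partners of the factors encoded by Srebf1 and Srebf2 at their targets. Over the 35 windows of 26 genes that were searched, 62.9% held CCAAT and 77.1% held GGGCGG, beside 37.4% and 35.7% of all 32851 windows. The 26 include Acat2, whose expression was not measured. Chromosome 18 was left out for the members but kept among all windows, so Stard4, which lies there, was not searched. Sqle, Fdps, Fdft1, Scd1, Scd2 and Fads1 had no window and were not searched either. A match to these letters describes the sequence and shows no binding.

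Insig1 helps to hold the Scap complex back, and its own gene is a target of the pathway. In newly transcribed RNA at 30 min its lowest, median and highest values were 12.43, 12.66 and 12.91, against 11, 11.23 and 11.43 in total RNA. No array of the first overlapped the second, and the difference was 1.43 ± 0.08 (adjusted p = 4.51e-12, limma, n = 9 each; 0.000407 on trio means). At 60 min it read 12.08, 11.84 and 11.43 in newly transcribed RNA, against 10.82, 10.33 and 10.98 in total RNA. The groups again stood apart, by 1.07 ± 0.27 (adjusted p = 0.00915), and by 1.09 ± 0.11 in 2F (adjusted p = 1.45e-05), where newly transcribed RNA read 12.33, 12.55 and 12.18 and total RNA 11.26, 11.32 and 11.20. The size at 60 min and in 2F was close to the 2-fold limit: it was 0.93 without replicate 1 of newly transcribed RNA at 60 min, 0.89 without replicate 2 of total RNA there, and 0.99 without replicate 2 of newly transcribed RNA in 2F. Equal array medians gave 0.91 in 2F. At 15 min newly transcribed RNA read 12.08, 12.78 and 11.81.

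Insig2, the other gene of the pair, went the opposite way. It read 6.02, 6.52 and 6.63 in newly transcribed RNA at 60 min, against 7.83, 7.56 and 8.05 in total RNA. The groups did not overlap and it was called lower there (-1.42 ± 0.25, adjusted p = 0.00161) and did not reach 2-fold at 30 min, -0.75 ± 0.15 (adjusted p = 0.000132), or in 2F, -0.92 ± 0.09 (adjusted p = 8.05e-06). With equal array medians it passed 2-fold in both, at -1.05 and -1.10. A second probe set of Insig2, 1417982_at, named after its values were seen, was called lower in all 3, with differences of -2.10, -2.88 and -1.99, of which that at 60 min had all newly transcribed arrays below the filter and is at least 3.34-fold. Pre-existing RNA at 60 min read 8.34, 8.21 and 8.23 on the first probe set, above all 3 newly transcribed arrays.

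Srebf1 and Srebf2 encode the transcription factors, the first mainly for fatty acid genes and the second mainly for sterol genes. Srebf1 read 9.19, 7.99 and 8.27 in newly transcribed RNA at 60 min, against 7.71, 6.65 and 6.44 in total RNA, and 8.27, 8.35 and 8.62 against 7.70, 7.64 and 7.68 in 2F. It was called higher at 60 min (1.55 ± 0.41, adjusted p = 0.012), stayed under 2-fold in 2F (0.74 ± 0.11, adjusted p = 0.000173) and was not called at 30 min (-0.04 ± 0.13, adjusted p = 0.788), where the arrays overlapped. Without replicate 3 of total RNA the 60 min difference was 1.31 with an adjusted p of 0.0542. Pre-existing RNA at 60 min read 7.91, 8.41 and 7.94, also above every array of total RNA and overlapping newly transcribed RNA. The difference from total RNA therefore shows no enrichment over pre-existing RNA, which was not tested. The difference between the 60 min and the 30 min enrichment was itself called, at 1.59 ± 0.33 (adjusted p = 0.00111), and that between 2F and 60 min was not (-0.81, adjusted p = 0.277), although it was without replicate 1 of total RNA at 60 min (-1.20, adjusted p = 0.0425).

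Srebf2 had negative differences in all 3 experiments, with arrays that overlapped at 30 min and 60 min. At 30 min its lowest, median and highest were 7.43, 7.83 and 8.60 in newly transcribed RNA and 8.09, 9.30 and 9.56 in total RNA, and the difference of -1.02 ± 0.23 was called (adjusted p = 0.000475). On trio means the same difference had an adjusted p of 0.0542, without the trio of replicates 3, 6 and 9 it was -0.68, and it was under 2-fold with quantile normalization (-0.99), an offset of 32 (-0.94) or all its probe sets averaged (-0.83). At 60 min it was -1.20 ± 0.52 (adjusted p = 0.085), and it was called with the replicate number as a block (-1.20, adjusted p = 0.0269) and without replicate 1 of newly transcribed RNA (-1.82, adjusted p = 0.00443). In 2F it was -0.62 ± 0.12 (adjusted p = 0.00104). Scap, the escort protein, was called lower at 30 min by -1.35 ± 0.15 (adjusted p = 8.63e-08), with 6.83, 7.12 and 7.73 as lowest, median and highest in newly transcribed RNA against 8.01, 8.62 and 9.03 in total RNA. Its difference was -0.50 at 60 min and -0.89 in 2F, neither past 2-fold, although equal array medians gave -1.07 in 2F. Averaged with its other probe set, which lay below the filter, Scap was at -0.05 at 30 min and 0.55 in 2F, so its direction rests on the probe set.

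**Figure D2:**
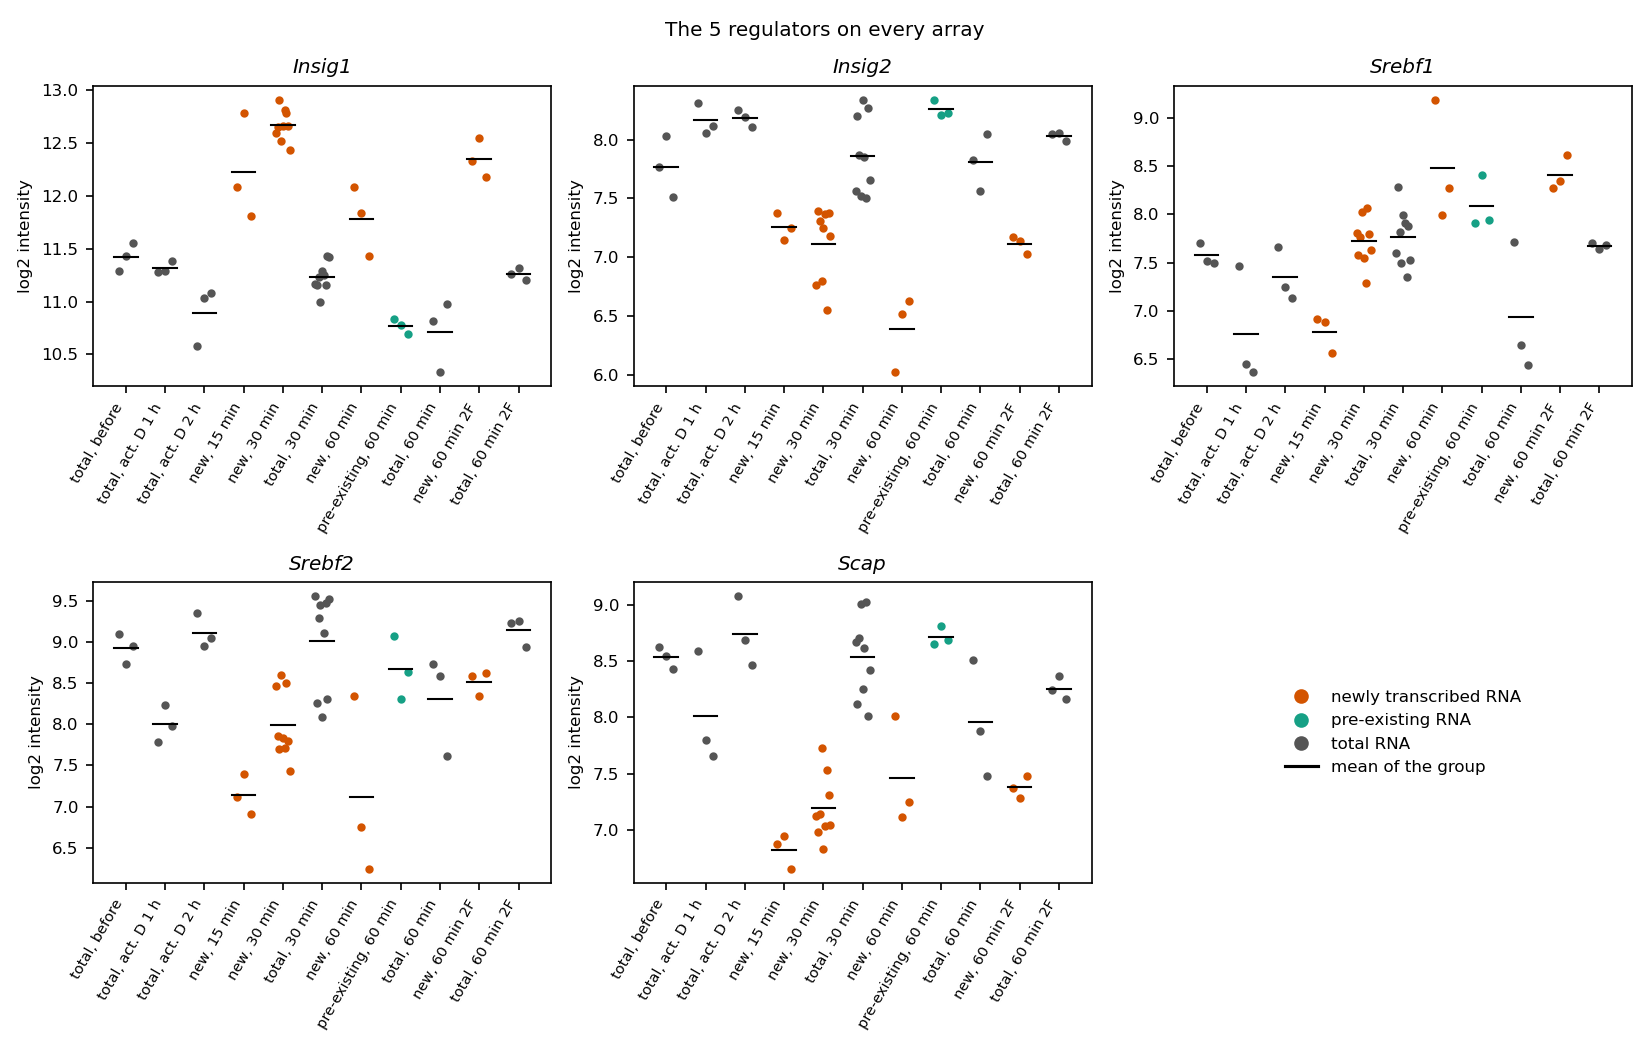
Log2 intensity of the 5 regulators on every array of the 11 groups; points are arrays, coloured by kind of RNA, and black lines are group means. Newly transcribed Insig1 lies above the total RNA of the same labelling, and newly transcribed Insig2 below it, on every array.

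The sterol enzymes differed in direction. Hmgcs1, which makes HMG-CoA, Hsd17b7 and Sc5d, which act late on the sterol rings, and Stard4 had positive differences in all 3 experiments. Mvk and Mvd, which phosphorylate and decarboxylate mevalonate, Fdps, which makes farnesyl diphosphate, and the late enzymes Tm7sf2, Nsdhl, Ebp and Dhcr7 had negative ones. Of the 16 sterol enzymes, 2 were called higher and 7 lower at 30 min, 1 higher and 5 lower at 60 min, and 2 higher and 6 lower in 2F. Among all genes read by the same rule, 14.4% were called higher and 29.1% lower at 30 min. The shares were 15.6% and 24.6% at 60 min, and 18.8% and 22.5% in 2F. Whether the sterol enzymes differ from these shares was not tested. Mvk, Fdps, Tm7sf2, Nsdhl and Ebp, with the fatty acid enzyme Acss2, were the 6 genes called lower in all 3 experiments, which held for 13.6% of probe sets. Of these, Acss2 in all 3 experiments and Tm7sf2 at 60 min and in 2F passed the filter through total RNA alone, and Nsdhl at 30 min was -0.99 with quantile normalization, below the limit. Pmvk, Idi1, Fdft1, Sqle and Cyp51 were called in none of the 3, and their differences ran from -0.32 to 0.62.

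The promoters of 3 genes with positive differences are shown with the same capitals. In Hmgcs1 they also mark TCACNCCAC, the core of the sterol regulatory element.
Hmgcs1, chr13:119690101-119690400, plus strand: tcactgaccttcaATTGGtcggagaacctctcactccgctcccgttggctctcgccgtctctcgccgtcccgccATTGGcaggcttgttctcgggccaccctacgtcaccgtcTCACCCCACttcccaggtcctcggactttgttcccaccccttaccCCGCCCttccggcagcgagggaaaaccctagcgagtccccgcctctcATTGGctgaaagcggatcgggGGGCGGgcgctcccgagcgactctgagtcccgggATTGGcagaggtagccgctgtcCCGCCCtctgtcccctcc
Hsd17b7, chr1:169969156-169969455, minus strand: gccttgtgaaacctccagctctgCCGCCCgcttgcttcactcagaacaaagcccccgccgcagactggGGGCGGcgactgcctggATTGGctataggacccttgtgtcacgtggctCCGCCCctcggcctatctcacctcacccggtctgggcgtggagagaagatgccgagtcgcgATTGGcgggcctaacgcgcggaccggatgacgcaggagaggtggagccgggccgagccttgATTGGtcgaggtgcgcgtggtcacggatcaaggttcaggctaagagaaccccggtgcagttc
Sc5d, chr9:42264251-42264550, minus strand: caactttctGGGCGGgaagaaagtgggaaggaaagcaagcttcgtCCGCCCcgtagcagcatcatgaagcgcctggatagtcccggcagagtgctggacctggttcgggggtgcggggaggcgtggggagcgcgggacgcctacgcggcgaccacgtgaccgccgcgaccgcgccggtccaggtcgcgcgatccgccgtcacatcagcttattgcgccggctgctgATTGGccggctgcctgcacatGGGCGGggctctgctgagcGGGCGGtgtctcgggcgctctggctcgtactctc

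The Hmgcs1 window was the only one of the 35 searched to hold TCACNCCAC, beginning 137 bases before the start of the transcript, and 1.24% of all windows held it on either strand. Members without a window, Sqle among them, are not covered. It also held 4 CCAAT and 3 GGGCGG. Hsd17b7 held 3 of each, and Sc5d 1 CCAAT and 4 GGGCGG. The promoters of Ebp and Mvk, from the group that was lower in newly transcribed RNA, follow for comparison.
Ebp, chrX:8193463-8193762, minus strand: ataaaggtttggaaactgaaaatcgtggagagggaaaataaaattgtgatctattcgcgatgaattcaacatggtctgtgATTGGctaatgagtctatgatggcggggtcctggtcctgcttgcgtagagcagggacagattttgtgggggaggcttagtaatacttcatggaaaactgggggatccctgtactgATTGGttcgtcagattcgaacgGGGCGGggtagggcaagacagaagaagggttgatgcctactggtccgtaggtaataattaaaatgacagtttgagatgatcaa
Mvk, chr5:114444019-114444318, plus strand: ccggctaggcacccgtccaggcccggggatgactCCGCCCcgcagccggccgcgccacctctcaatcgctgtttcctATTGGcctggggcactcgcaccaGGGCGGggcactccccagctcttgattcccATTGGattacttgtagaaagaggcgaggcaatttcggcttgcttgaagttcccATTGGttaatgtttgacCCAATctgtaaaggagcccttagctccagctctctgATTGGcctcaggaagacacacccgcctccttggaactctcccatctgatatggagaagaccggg

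Ebp held 2 CCAAT and 1 GGGCGG, and Mvk 5 CCAAT and 2 GGGCGG, so both boxes occurred in windows of either direction.

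Hmgcs1 read 13.58, 13.83 and 13.95 as lowest, median and highest in newly transcribed RNA at 30 min, against 12.85, 12.98 and 13.03 in total RNA. The groups did not overlap, but the difference of 0.82 ± 0.07 (adjusted p = 2.8e-09) was below 2-fold, as were 0.99 ± 0.36 at 60 min (adjusted p = 0.0472) and 0.94 ± 0.12 in 2F (adjusted p = 6.25e-05). Sc5d, the lathosterol desaturase, was called higher at 30 min by 1.34 ± 0.12 (adjusted p = 3.57e-09) and in 2F by 1.15 ± 0.10 (adjusted p = 5.3e-06). In 2F it read 9.51, 9.37 and 9.47 in newly transcribed RNA, against 8.46, 8.23 and 8.22 in total RNA. Its other tested probe set, 1451457_at, named after its values were seen, gave 0.25 at 30 min and 0.48 in 2F, so the size rests on the probe set. Hsd17b7, a 3-ketosteroid reductase of the pathway, was called higher at 30 min by 1.23 ± 0.19 (adjusted p = 8.07e-06), where the arrays overlapped, and in 2F by 1.17 ± 0.11 (adjusted p = 1.03e-05). With equal array medians it fell to 0.94 and 0.99, below the limit, as did Sc5d in 2F, to 0.97. With all probe sets of a gene averaged, Sc5d was 0.92 at 30 min and 0.56 in 2F, and Hsd17b7 0.85 in 2F.

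Stard4 read 10.83, 10.58 and 10.80 in newly transcribed RNA of 2F, against 9.40, 9.15 and 9.33 in total RNA. The groups stood 1.44 ± 0.11 apart (adjusted p = 1.98e-06), and 1.25 ± 0.10 at 30 min (adjusted p = 2.93e-10), but 0.84 ± 0.29 at 60 min (adjusted p = 0.0362), where arrays overlapped. With equal array medians the 30 min difference was 0.96. Probe set 1455011_at gave 0.97 at 30 min and 1.17 in 2F, and 1429239_a_at gave 0.33 and 0.06. Averaged over its probe sets Stard4 was below 2-fold, at 0.85 and 0.89.

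Ebp, the sterol isomerase, had the most negative difference of the sterol enzymes at 30 min. Its lowest, median and highest values were 5.59, 6.15 and 6.88 in newly transcribed RNA against 8.98, 9.28 and 9.75 in total RNA, a difference of -3.10 ± 0.16 (adjusted p = 7.3e-13). It was -2.97 ± 0.44 at 60 min (adjusted p = 0.000596) and -3.14 ± 0.12 in 2F (adjusted p = 1.03e-07). Pre-existing RNA read 9.59, 9.14 and 9.47, against 9.15, 7.90 and 8.69 in total RNA at 60 min. The differences of the 3 experiments lay within the standard error at 60 min of each other.

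Tm7sf2, a sterol reductase, was low in every newly transcribed array. It read 3.66, 3.55 and 3.77 in newly transcribed RNA of 2F, against 7.75, 7.75 and 7.70 in total RNA. Tm7sf2 was at least 6.65-fold lower in 2F and at least 6.4-fold lower at 60 min, with all 3 newly transcribed arrays below 5 in each. At 30 min, where its newly transcribed arrays had a lowest, median and highest of 4.70, 5.22 and 5.86, the difference was -2.77 ± 0.19 (adjusted p = 5.29e-11).

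Mvk, the mevalonate kinase, read 6.14, 6.14 and 6.39 in newly transcribed RNA of 2F, against 8.45, 8.49 and 8.50 in total RNA. It was lower by -2.26 ± 0.10 there (adjusted p = 1.28e-07) and by -1.91 ± 0.22 at 30 min (adjusted p = 1.4e-07). At 60 min the difference was -1.81 ± 0.66 (adjusted p = 0.0473) over spread arrays that overlapped, and it was no longer called without replicate 2 or 3 of newly transcribed RNA or replicate 1 or 3 of total RNA, with adjusted p from 0.105 to 0.162, or with no filter (adjusted p = 0.13). Mvd was called at 30 min (-1.65 ± 0.23, adjusted p = 1.88e-06) and in 2F (-1.33 ± 0.10, adjusted p = 1.64e-06). Fdps was called in all 3, at -1.30, -1.56 and -1.70 at 30 min, 60 min and 2F, and Nsdhl at -1.10, -1.40 and -1.25. Dhcr7, the last reductase of the pathway, was called at 30 min alone (-1.38 ± 0.18, adjusted p = 7.9e-07), with -0.58 at 60 min and -0.94 in 2F.

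Lss, which closes the sterol rings, was called higher at 60 min (1.02 ± 0.35, adjusted p = 0.0371). It read 11.19, 9.89 and 10.04 in newly transcribed RNA, against 9.67, 9.13 and 9.27 in total RNA, so replicate 1 was high in both. The difference was 0.61 without replicate 1 of newly transcribed RNA, and the adjusted p was 0.0905 without replicate 2 and 0.103 without replicate 3 of total RNA. It also lost its call with equal array medians (0.97), an offset of 32 (0.99), all probe sets averaged (0.47) or no filter (adjusted p = 0.0699). It was -0.215 at 30 min and 0.13 in 2F, and a second probe set, 1426913_at, gave 1.26, -0.05 and 0.66 at 30 min, 60 min and 2F. The probe sets of Lss thus did not share an order across the experiments. On the chosen one, pre-existing RNA at 60 min read 10.10, 10.35 and 10.09. These values also lay above every array of total RNA and overlapped newly transcribed RNA.

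Among the fatty acid enzymes Acss2, Fads2, Scd1 and Acly were called lower in at least 1 experiment. Acss2, which makes acetyl-CoA from acetate, had the most negative differences of the 10, with 3.59, 3.67 and 3.64 in newly transcribed RNA of 2F against 6.93, 6.91 and 6.82 in total RNA. All its newly transcribed arrays lay below 5 in the 3 experiments, so it passed the filter through total RNA alone. It was at least 3.7-fold lower in 2F, at least 4.41-fold lower at 30 min and at least 4-fold lower at 60 min. A second probe set, 1422479_at, was also below 5 on all newly transcribed arrays, with bounds of 2.82-fold, 3.22-fold and 1.39-fold in the same order. Fads2, the delta-6 desaturase, was called lower at 30 min and in 2F, at -1.55 in each, and Scd1, the stearoyl-CoA desaturase, at 30 min and 60 min, at -1.04 and -1.08. Without the trio of replicates 1, 4 and 7 the 30 min difference of Scd1 was -0.97, and it was -0.93 with quantile normalization. Acly, which cleaves citrate to acetyl-CoA, was called lower at 60 min alone (-1.01 ± 0.27, adjusted p = 0.012), and was -0.72 at 30 min and -0.99 in 2F. Averaged over its probe sets it was -0.64 at 60 min. There it stayed under 2-fold (-0.87 to -0.99) without replicate 2 or 3 of newly transcribed RNA or replicate 1 or 2 of total RNA, and Scd1 (-0.84) without replicate 3 of newly transcribed RNA.

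Fasn, the fatty acid synthase, moved the other way. It read 11.81, 11.50 and 11.20 in newly transcribed RNA at 60 min, against 10.70, 10.22 and 10.49 in total RNA, and was called higher by 1.04 ± 0.25 (adjusted p = 0.00792). It was 0.88 without replicate 1 of newly transcribed RNA, 0.91 without replicate 2 of total RNA and 0.98 with equal array medians. In 2F it was 0.75 ± 0.10 (adjusted p = 0.000125) and at 30 min 0.31. Elovl6, an elongase, was higher below 2-fold in 2F (0.68 ± 0.08, adjusted p = 4.79e-05), and Acaca, Elovl1, Scd2 and Fads1 were called in none of the 3 experiments. On another probe set of Scd2, 1415824_at, the differences were -1.67 at 30 min, -1.86 at 60 min and -3.25 in 2F, the first and the last called, against 0.19, -0.18 and 0.34 on the probe set chosen by the rule.

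Differences between the experiments were tested as interaction terms. Between 60 min and 30 min, 3 of the 32 enrichments were called higher, where 10.3% of probe sets were, and none lower, where 11.8% were. Of all genes read by the same rule, 12.1% were called higher and 6.25% lower. In limma's fit 5 of the 32 had an adjusted p below 0.05 and 11 an unadjusted one, in either direction. Besides Srebf1, those called were Lss at 1.23 ± 0.34 (adjusted p = 0.00922) and Acaca, the first enzyme of fatty acid synthesis, at 1.01 ± 0.24 (adjusted p = 0.00338). For Srebf1 and Lss, every array of pre-existing RNA at 60 min also lay above every array of total RNA. On trio means the adjusted p was 0.0931 for Lss and 0.0797 for Acaca, and both fell under the limit without replicate 1 of newly transcribed RNA at 60 min, to 0.83 and 0.71. Lss was also lost without the trio of replicates 3, 6 and 9 (0.99), and Acaca without that trio (0.92), the trio of replicates 2, 5 and 8 (0.91) or replicate 3 of total RNA (0.91). With all probe sets averaged Lss was 0.19 and Acaca 0.37, and quantile normalization and an offset of 32 each put Acaca at 0.95. Scap was called higher without replicate 2 of newly transcribed RNA (1.02) or replicate 1 of total RNA (1.12), and with equal array medians (1.09). Between 2F and 30 min Tm7sf2 was called lower, at -1.30 ± 0.33 (adjusted p = 0.0201), where 2.19% of probe sets were called lower and 1.62% higher. Of all genes read by the same rule, 0.487% were called lower and 1.97% higher. The adjusted p of Tm7sf2 was 0.154 on trio means and 0.0549 to 0.0617 without any of 5 of the 2F arrays, and 0.0766 without the trio of replicates 3, 6 and 9. It was 0.0689 with equal array medians, and an offset of 32, which damps values near the background, gave -0.39 (adjusted p = 0.391). All newly transcribed arrays of Tm7sf2 in 2F lay below the filter, so the size of this difference rests on values there. Without the trio of replicates 1, 4 and 7 Srebf1 was called higher (1.04). Between 2F and 60 min none of the 32 was called by limma, where 0.294% of probe sets were called higher and 0.0876% lower, and 4 had an unadjusted p below 0.05. Of all genes read by the same rule, 0.244% were called higher and 0.0122% lower.

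Pre-existing RNA at 60 min was set against total RNA to see what was left of each transcript. None of the 32 genes was called by limma, beside 1.87% of probe sets called higher and 6.96% called lower, and 8 had an unadjusted p below 0.05. Of all genes read by the same rule, 1.87% were called higher and 2.81% lower. The median difference of the 32 was 0.34, beside 0.16 for all genes read by that rule. The positive end held Mvk at 1.56, Mvd at 1.20 and Srebf1 at 1.15, and the negative end Hsd17b7 at -0.96 and Stard4 at -0.89, with adjusted p of 0.0741 and above. Without replicate 1 of total RNA 1 gene was called higher, Srebf1 (1.54, adjusted p = 0.0279), and 1 lower. Hsd17b7 read 8.65, 8.97 and 8.57 in pre-existing RNA, against 9.21, 10.19 and 9.68 in total RNA. A half-life was not derived per gene, because the scale that makes new and pre-existing RNA add up to the total moved with the arrays and settings used.

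Total RNA after actinomycin D was set against total RNA before it to see which transcripts became less or more abundant relative to the others once transcription was blocked. With each array scaled on its own, a difference of 0 does not mean that the amount stayed the same. None of the 32 genes was called at 1 h or at 2 h by limma. The background of all probe sets was 3.58% lower and 2.57% higher at 1 h, and 9.42% lower and 0.538% higher at 2 h. Over all genes read by the same rule it was 3.97% and 0.699% at 1 h, and 10.9% and 0.294% at 2 h. An adjusted p below 0.05, at any size, was reached by 9 of the 32 genes at 1 h and 10 at 2 h, and an unadjusted p by 13 and 11. How many of all probe sets reached these limits was not taken, so the counts show no excess or lack. The median difference was -0.02 at both times, beside 0.09 at 1 h and 0.10 at 2 h for all probe sets, and the extremes were -0.98 and 0.73 at 2 h. With equal array medians, the median of all probe sets became 0.43 at 2 h.

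Sqle, Hmgcs1, Insig1, Stard4, Fdft1 and Fasn were lower at 2 h by less than 2-fold. Sqle, the squalene epoxidase, read 11.72, 11.81 and 11.72 before, 11.75, 11.14 and 11.29 at 1 h and 10.69, 10.85 and 10.77 at 2 h. All arrays at 2 h lay below all before, at -0.98 ± 0.15 (adjusted p = 0.000803), a 1.98-fold difference. Without replicate 2 at 2 h, 1 of the 32 genes was called lower. Hmgcs1 was at -0.63 ± 0.11 (adjusted p = 0.00181), with 12.42, 12.47 and 12.48 at 2 h, against 13.11, 13.07 and 13.08 before. Insig1 was at -0.53 ± 0.14 (adjusted p = 0.0182), Stard4 at -0.48 ± 0.10 (adjusted p = 0.00654) and Fdft1 at -0.47 ± 0.13 (adjusted p = 0.0215). Fasn had 10.89, 10.85 and 10.86 before, 10.24, 9.92 and 9.95 at 1 h and 10.34, 10.17 and 10.19 at 2 h, thus -0.83 ± 0.11 at 1 h and -0.64 ± 0.11 at 2 h.

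Acss2 had positive differences, at 0.54 ± 0.15 (adjusted p = 0.0187) at 1 h and 0.73 ± 0.15 (adjusted p = 0.00423) at 2 h. It read 7.39, 7.38 and 7.19 before, 7.56, 8.03 and 7.97 at 1 h and 7.96, 8.22 and 7.95 at 2 h. Ebp was at 0.46 ± 0.09 at 1 h (adjusted p = 0.00495), Tm7sf2 at 0.43 ± 0.12 and Insig2 at 0.41 ± 0.14 at 2 h (adjusted p = 0.0207 and 0.0459).

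**Figure D3:**
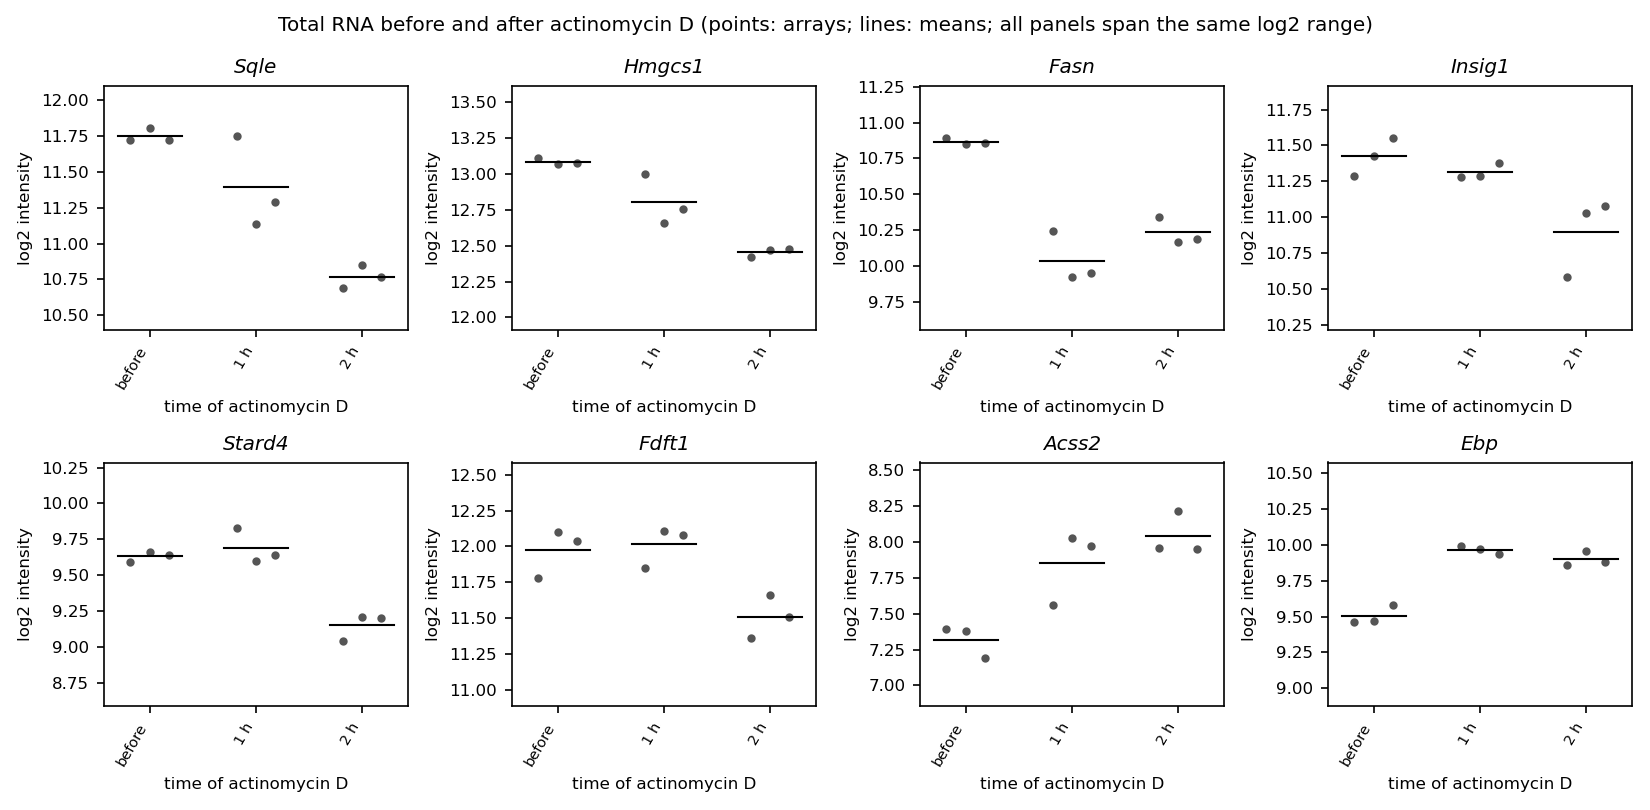
Log2 intensity in total RNA before and 1 h and 2 h after actinomycin D for 8 genes, all panels spanning the same log2 range; points are arrays and lines are means. Sqle, Hmgcs1 and Stard4 lie lower at 2 h than before on all 3 arrays, and Acss2 and Ebp lie higher.

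The transcription factor genes read lowest at 1 h. Srebf2 read 9.10, 8.74 and 8.95 before, 7.79, 8.24 and 7.98 at 1 h and 9.35, 8.95 and 9.05 at 2 h. The 1 h arrays lay below all others, at -0.92 ± 0.16 against before (adjusted p = 0.00248). Srebf2 was also the 1 gene of the 32 called between the times, 1.11 ± 0.16 higher at 2 h than at 1 h (adjusted p = 0.00061), where 2.28% of probe sets were called higher and 7.32% lower. It was 0.99 without replicate 1 at 2 h. Of all genes read by the same rule, 2.42% were called higher between the times and 7.55% lower. Srebf1 was at -0.82 ± 0.27 at 1 h (adjusted p = 0.0367), and Scap differed by less than 2-fold between 2 h and 1 h (0.73 ± 0.24, adjusted p = 0.0371; 1.04 with equal array medians). Without replicate 1 at 1 h Srebf1 was called lower (-1.17, adjusted p = 0.00176) and Scap called higher between the times (1.02, adjusted p = 0.00292), and Srebf2 was called lower at 1 h without replicate 2 there (-1.04) or without replicate 2 before (-1.02). Replicate 1 at 1 h read 7.46 for Srebf1 and 8.59 for Scap, against 6.45 and 6.36, and 7.80 and 7.66, in the other two arrays.

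Total RNA of labelled cells, which had been given fresh medium with 4-thiouridine, was set against cells before treatment to see whether the levels moved during labelling. The groups are separate experiments, so experiment, fresh medium and labelling cannot be told apart. At 30 min none of the 32 was called by limma, beside 0.181% of probe sets called lower and 0.544% called higher, and 1 had an unadjusted p below 0.05. In 2F none was called, beside 0.498% and 1.36%, and 11 had an unadjusted p below 0.05. Of all genes read by the same rule, 0.108% were called lower and 0.526% higher at 30 min, and 0.239% and 1.32% in 2F. At 60 min 4 of the 32 were called lower and none higher, where 4.98% and 3.49% of probe sets were. Of the genes read by the same rule, 4.05% were called lower and 2.58% higher. The median of the 32 was -0.61, beside -0.09 for all probe sets and -0.07 for those genes. In limma's fit 18 of the 32 had an adjusted p below 0.05 and 24 an unadjusted one, in either direction.

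The 4 were Mvk, Mvd, Lss and Tm7sf2. Mvk read 8.03, 6.11 and 7.47 at 60 min, against 8.92, 8.81 and 8.98 before (-1.70 ± 0.42, adjusted p = 0.0118), and its adjusted p was 0.0667 without replicate 2 at 60 min. Mvd read 8.08, 6.97 and 7.41, against 9.17, 9.13 and 9.21 before (-1.68 ± 0.27, adjusted p = 0.000845). Lss was at -1.19 ± 0.23 (adjusted p = 0.0027) and Tm7sf2 at -1.07 ± 0.29 (adjusted p = 0.0195). Tm7sf2 was at -0.96 without replicate 1 at 60 min and had an adjusted p of 0.0631 or 0.065 without replicate 1 or 3 before. It was no longer called with equal array medians (adjusted p = 0.0668) or an offset of 32 (-0.96), nor was Lss with all its probe sets averaged (-0.44). Srebf1 was called lower without replicate 1 at 60 min (-1.03, adjusted p = 0.00238). Pre-existing RNA of the same 60 min experiment read 8.82, 8.67 and 8.82 for Mvk and 8.79, 8.73 and 8.53 for Mvd, closer to the values before than total RNA was. The same 4 genes were at -0.43, -0.72, -0.60 and -1.01 in 2F, without a call, although Tm7sf2 in 2F had an adjusted p of 0.0438 on trio means.

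**Figure D4:**
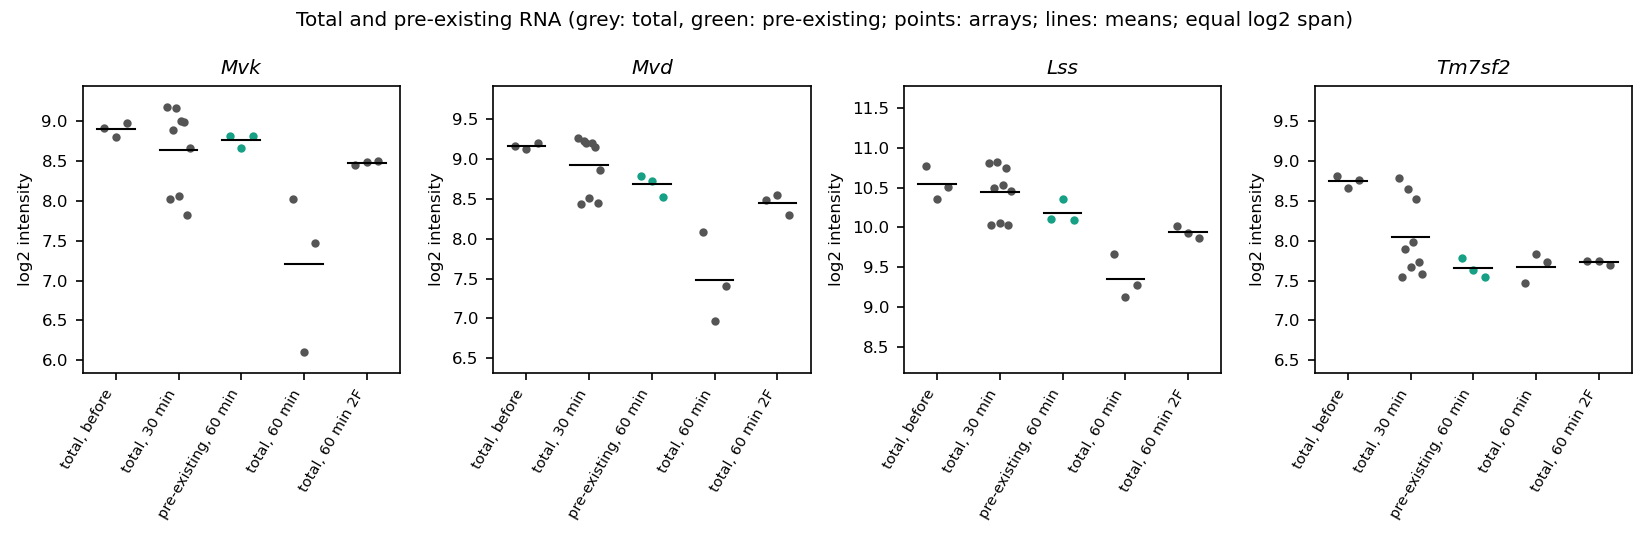
Log2 intensity of Mvk, Mvd, Lss and Tm7sf2 in total RNA before treatment, at 30 min, at 60 min and in 2F, and in pre-existing RNA at 60 min; points are arrays and lines are means. For Mvk, Mvd and Lss the total RNA at 60 min lies below the pre-existing RNA of the same experiment, and for Tm7sf2 it does not.

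Newly transcribed RNA was also compared across labelling times, again between separate experiments. Tm7sf2 and Acss2 were below the filter in these fits, which left 30 genes. At 15 min against 30 min 1 gene was called lower, where 7.59% of probe sets were, and none higher, where 9.50% were. Of all genes read by the same rule, 9.14% were called lower and 1.79% higher. The member called was Fasn, with 9.98, 10.26 and 9.64 at 15 min, against 10.71, 11.03 and 11.60 as lowest, median and highest at 30 min (-1.16 ± 0.21, adjusted p = 0.000405). It was -0.97 without the trio of replicates 1, 4 and 7 at 30 min. Without replicate 1 at 15 min Srebf1 was also called lower, just past 2-fold (adjusted p = 0.00854), and without the trio of replicates 3, 6 and 9 Srebf1 (-1.02) and Srebf2 (-1.04) were.

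At 60 min against 30 min 1 gene was called lower and 1 higher, where 12.1% and 5.23% of probe sets were. Of all genes read by the same rule, 5.52% were called lower and 6.17% higher. The members called were Mvk (-1.34 ± 0.39, adjusted p = 0.0123) and Elovl1, an elongase (1.00 ± 0.17, adjusted p = 0.000282). With the replicate number as a block neither was called (Mvk -1.27, adjusted p = 0.0834; Elovl1 0.89, adjusted p = 0.0413), and on trio means Mvk had an adjusted p of 0.0893. Equal array medians (adjusted p = 0.0562), an offset of 32 (-0.81) and all probe sets averaged (-0.81) also ended the call of Mvk, and quantile normalization (0.96), the offset (0.98) and all probe sets averaged (0.68) that of Elovl1. Mvk was -0.68 without replicate 3 at 60 min. Elovl1 was 0.76 without replicate 1 at 60 min, and 0.99 or 0.94 without the trio of replicates 2, 5 and 8 or of 3, 6 and 9. Without replicate 1 at 60 min 3 genes were called lower, Insig1 (-1.04) and Srebf2 (-1.49) among them, without the trio of replicates 3, 6 and 9 Srebf2 was (-1.07), and without replicate 2 Srebf1 was called higher (1.01). In 2F against 30 min none of the 30 was called by limma, beside 7.16% of probe sets lower and 3.69% higher, and 4 had an unadjusted p below 0.05. Of all genes read by the same rule, 1.37% were called lower and 4.03% higher.

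Several genes had further probe sets whose values departed from the one chosen by the rule, and those named next were picked after their values were seen. For Hmgcs1, 1441536_at read 11.05, 11.47 and 11.73 as lowest, median and highest in newly transcribed RNA at 30 min, against 7.92, 8.00 and 8.97 in total RNA, a difference of 3.25 ± 0.14 (adjusted p = 1.26e-13). In the actinomycin D experiment it read 7.97, 7.88 and 7.64 before, 4.19, 4.36 and 4.16 at 1 h and 3.40, 4.22 and 3.36 at 2 h. With all arrays after the drug below 5 it was at least 7.12-fold lower at both times. In pre-existing RNA it read 4.99, 4.99 and 5.00, against 7.38, 8.24 and 7.59 in total RNA, at least 6.65-fold lower. The other 4 probe sets of Hmgcs1 lay between -0.72 and -0.44 at 2 h.

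For Elovl6, 1442656_at read 9.66, 9.34 and 9.84 in newly transcribed RNA at 15 min, against a lowest, median and highest of 7.55, 8.05 and 8.56 at 30 min (1.61 ± 0.35, adjusted p = 0.00173). It was enriched at 30 min (2.52 ± 0.22, adjusted p = 2.7e-09) and lower at 2 h of actinomycin D (-1.17 ± 0.25, adjusted p = 0.00545). In pre-existing RNA it read 2.99, 2.55 and 3.40, against 6.26, 7.03 and 6.12 in total RNA at 60 min. It was at least 2.76-fold lower there, with all 3 pre-existing arrays below 5. For Fads1, 1440444_at read 8.06, 8.39 and 8.71 in newly transcribed RNA at 30 min, against 2.57, 3.12 and 5.03 in total RNA. With 8 of 9 total RNA arrays below 5 it passed the filter through newly transcribed RNA alone. It was at least 10.3-fold higher there, where the chosen probe set gave -0.69. All 3 of these probe sets were at their highest in newly transcribed RNA of 15 min or 30 min and low in pre-existing RNA. Whether they detect unspliced precursor was not tested.

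**Figure D5:**
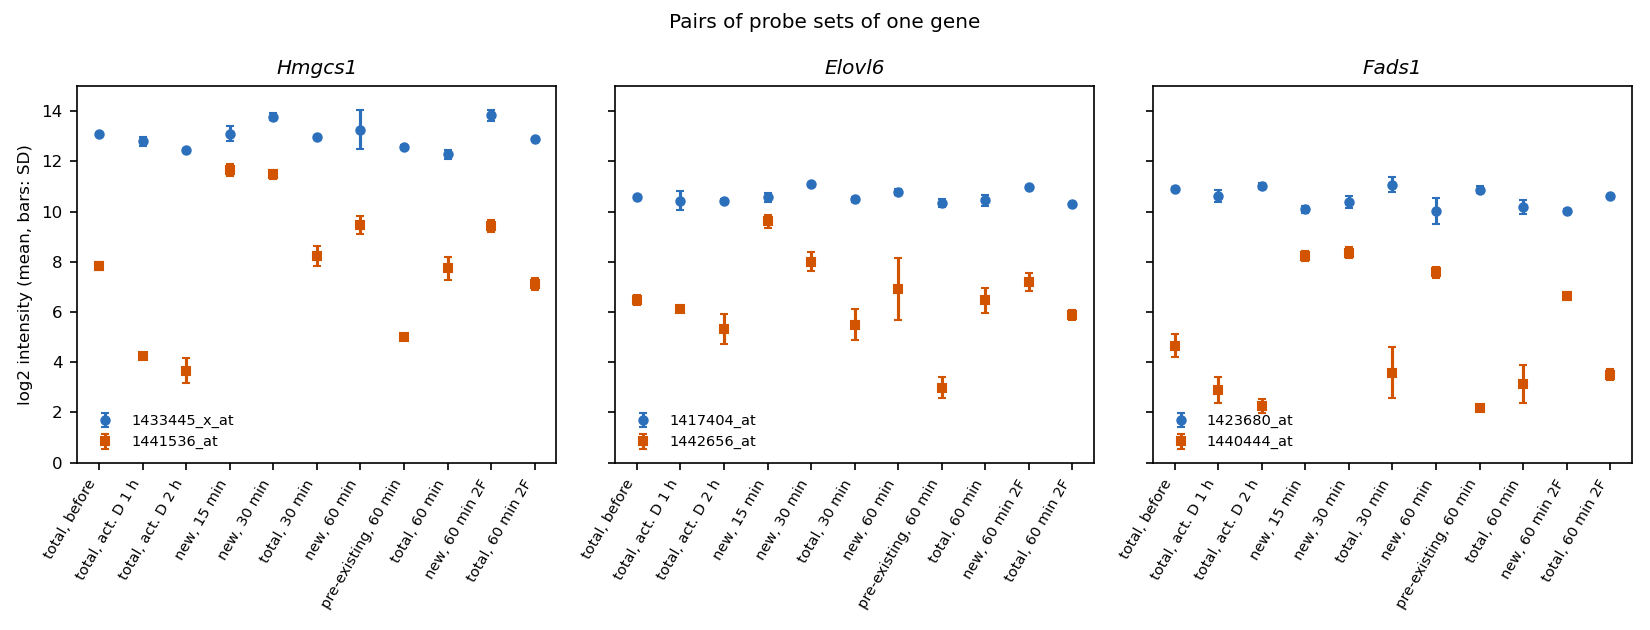
Log2 intensity, group mean with SD, over the 11 groups for a pair of probe sets each of Hmgcs1, Elovl6 and Fads1; blue is the probe set chosen by the rule and orange the other. The orange sets lie highest in newly transcribed RNA of 15 min or 30 min and low in pre-existing RNA, while the blue sets stay within a narrow range.

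The other genes of lipid synthesis and its control, from a list of 61 of which 50 had a probe set, were read in the same fits. At 30 min 3 of the 43 tested were called higher and 15 lower in newly transcribed RNA, at 60 min 5 and 14 of 43, and in 2F 6 and 13 of 45. Over all genes read by the same rule, 14.4% were called higher and 29.1% lower at 30 min, 15.6% and 24.6% at 60 min, and 18.8% and 22.5% in 2F. The low ones included Dhdds, which makes dolichol (at least 3.76-fold, 3.36-fold and 3.8-fold lower at 30 min, 60 min and 2F, with all newly transcribed arrays below 5), Agpat3, an acyltransferase of glycerolipids (-2.64 at 30 min, -2.36 in 2F and at least 2.94-fold lower at 60 min, where 2 of 3 newly transcribed arrays lay below 5), and Slc25a1, the mitochondrial citrate carrier (-2.09, -1.36 and -1.97 at 30 min, 60 min and 2F). The phosphatidate phosphatases Lpin1 and Lpin2 and the acetyl-CoA carboxylase partner Mid1ip1 were called higher in all 3, Lpin1 at 1.26, 1.94 and 1.59, Lpin2 at 1.16, 1.67 and 1.70 and Mid1ip1 at 1.15, 1.48 and 1.16. After 1 h of actinomycin D 1 of 44 was called lower, Syvn1 (-1.29), where 3.58% of probe sets were, and 1 higher, the transcription factor partner Mlx (1.17), where 2.57% were. After 2 h 3 of 44 were called lower, where 9.42% of probe sets were, and none higher, where 0.538% were. They were the ubiquitin ligases Syvn1 (-1.70), Mylip (-1.61), which degrades lipoprotein receptors, and Rnf139 (-1.38). Over all genes read by the same rule, 3.97% were called lower and 0.699% higher at 1 h, and 10.9% and 0.294% at 2 h.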

How the data were processed

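Arrays of newly transcribed, pre-existing and total RNA of NIH-3T3 cells were read from the deposited table of 31451 probe sets, whose values are linear intensity after GCRMA, per the submitters' processing notes, with no version stated. The authors' deposited intensity was taken to log2 with no further scaling. Probe sets averaging log2 of 5 or more (intensity 32) over the arrays of a fit were tested with limma 3.58.1 in R 4.3.3 (lmFit, eBayes, Benjamini-Hochberg), and a call needed an adjusted p below 0.05 and a 2-fold change. Background percentages count all tested probe sets, or, where so named, all tested genes read by the rule used for the members. The members, the list of other pathway genes and the markers were chosen with earlier results of these data known. By rule all members are named, with the values of every array for the regulators and for up to 6 called members of largest change per comparison, and up to 4 called pathway genes of largest change per comparison. Other probe sets, genes and array values were added after they were seen. Groups follow the labels, and the precision is limited by the 3 or 9 arrays per group. Replicate numbers were checked as pairs: all 3 correlations of same-numbered arrays' deviations exceeded 0.1 for 6 comparisons (lowest 0.124, highest 0.527), a hint from the data with no pairing given in the labels. The script was tested on simulated data, where it recovered 97% of 1.5 log2 changes for newly transcribed against total RNA at 30 min but 40% at 60 min. Alternatives were other normalizations, filters, offsets, probe set rules, blocks, trio means and leaving out arrays. Promoters came from RefSeq (GRCm38.p6), with chromosome 18 left out for the members. Protein sequences were planned but not used here.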

Additional observations from a re-analysis of the deposited data

Results flagged for a closer look

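One array of Acss2 stood far from the others of its group: replicate 4 of total RNA at 30 min read 6.35, with the nearest array at 7.04, a gap of 0.568 of the group's range. Groups of 9 arrays were examined for every gene, and chance gives such a gap in about 1 in 20 groups.

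The enrichment of newly transcribed over total RNA was called different between experiments, by a test of the difference itself, for 4 genes. Between 60 min and 30 min it was higher at 60 min for Srebf1 by 1.59 (log2), for Lss by 1.23 and for Acaca by 1.01. For Srebf1 and Lss, every array of pre-existing RNA at 60 min also lay above every array of total RNA. On trio means limma's adjusted p was 0.0462 for Srebf1, 0.0931 for Lss and 0.0797 for Acaca, so only Srebf1 kept its call. With all probe sets averaged Lss was at 0.19 and Acaca at 0.37. Between 2F and 30 min it was lower in 2F for Tm7sf2, at -1.30. All newly transcribed arrays of Tm7sf2 in 2F lay below the filter, so this size rests on values there. An offset of 32 gave -0.39 (limma, adjusted p = 0.391), and on trio means the adjusted p was 0.154. The labelling time, the dose of 4-thiouridine and the experiment cannot be told apart in these differences.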

How the results depend on the processing

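Counts of genes called are given as main value and alternative. With equal array medians the counts were 1 higher after actinomycin D at 2 h (main 0), 2 higher for 2 h against 1 h (main 1), 2, 2 and 1 higher in newly transcribed RNA at 30 min, 60 min and 2F (main 4 each), 0 lower and 2 higher at 60 min against 30 min in newly transcribed RNA (main 1 each), 5 higher for the 60 min minus 30 min enrichment (main 3) and 0 lower for 2F minus 30 min (main 1). Quantile normalization gave 1 lower at 2 h (main 0) and 0 higher at 60 min against 30 min. Averaging all probe sets of a gene gave 1 lower at 1 h, 2 lower at 2 h, 1 lower in pre-existing RNA, 1 higher at 15 min and 1 lower in 2F against 30 min (main 0 each), and 0 higher at 60 min against 30 min. It also turned Scap, newly transcribed at 15 min against 30 min, to 1.04 (main -0.37). With no filter 2 were lower at 60 min and 1 in 2F against 30 min, a filter at log2 of 7 gave 0 lower at 60 min against 30 min and 0 for 2F minus 30 min, and an offset of 32 gave 0 lower and 0 higher at 60 min against 30 min and 0 for 2F minus 30 min. One fit over all arrays gave 3 higher in pre-existing RNA, 1 lower in total RNA of 2F, and 2 and 1 lower in newly transcribed RNA at 60 min and in 2F against 30 min. Trio means gave 1 lower in total RNA of 2F, 0 lower at 60 min against 30 min, 1 higher for 60 min minus 30 min and 0 lower for 2F minus 30 min. With the replicate number as a block, 0 were lower and 0 higher at 60 min against 30 min, and Srebf2 at 60 min was called (-1.20). The cause of these changes was not tested.

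Leaving out 1 array or trio moved counts of lower calls over 0 to 1 after actinomycin D at 1 h and 2 h, in pre-existing RNA, in total RNA at 30 min, for 60 min minus 30 min, 2F minus 30 min and 2F minus 60 min, and over 0 to 3 in newly transcribed RNA at 15 min and at 60 min against 30 min. Higher calls ranged over 0 to 2 for newly transcribed RNA at 60 min against 30 min and for 2 h against 1 h, 2 to 4 in newly transcribed over total RNA at 60 min, 0 to 1 in pre-existing RNA, in total RNA at 60 min and for 2F minus 30 min, and 1 to 5 for 60 min minus 30 min.

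The median half-life of 30 genes was 1283.7 min. From pre-existing over total RNA only 12 genes gave a value, and their median was 186.3 min. With the scale from the inverse line 23 genes did, and their median was 63.0 min. These medians therefore cover different genes. The median was 660.0 min with the scale at log2 of 5 or more, and 430.0 to 5797.2 min without single arrays. Without replicate 1 of total RNA no value could be had, so no half-life per gene is given.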
